A study of Mus musculus with 12 samples.

Results

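The 9 genes described here belong to calcium and calmodulin signalling. They are the 4 subunits of calcium/calmodulin-dependent protein kinase II (CaMKII; Camk2a, Camk2b, Camk2d and Camk2g), the kinase CaMKIV (Camk4), the calmodulin genes Calm2 and Calm3, and the small calmodulin-binding proteins neurogranin (Nrgn) and Pcp4. They were taken by symbol from the deposited expression table, which lists 56734 genes. All 9 were present once, and all 9 were among the 17606 genes that reached a level of 1 TPM (transcripts per 1000000) in at least 3 libraries and were tested. The 12 libraries came from mCherry-labelled cortical projection neurons of wild-type mice, sorted by fluorescence after in utero electroporation. There were 4 groups of 3 libraries, layer 2 and layer 3 at postnatal day 3 (P3) and the same layers at postnatal day 7 (P7), and each library was made from a pool of 2 to 3 pups. The names of the libraries hold a number that differs between the layers and that no label explains. Every group carried the same reporter and genotype, and the mCherry transcript itself is not among the listed genes. TPM is a level per transcript length, so it can be set side by side between genes, but it keeps no read depth, and the precision that depth would give is unknown.

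Calmodulin is the main calcium sensor of the cytosol. When it binds calcium it activates CaMKII, a holoenzyme of many subunits that phosphorylates synaptic receptors and anchoring proteins, and, through an upstream kinase, CaMKIV, which acts on transcription factors in the nucleus. Neurogranin and Pcp4 each carry an IQ motif, a short segment that binds calmodulin, and neurogranin holds calcium-free calmodulin near the membrane of dendrites and spines. In the forebrain the alpha and beta subunits make up most neuronal CaMKII, and the alpha subunit is known to appear later in development than the beta subunit.

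The bases upstream of the transcription start are shown for 4 of the 9 genes, because they include the gene with the lowest layer 2 level relative to layer 3 at P3 (Nrgn), the other IQ motif protein, whose levels followed another pattern (Pcp4), and a pair of CaMKII subunits, one that rose modestly and one that rose strongly (Camk2b and Camk2d). RefSeq promoter windows on GRCm38.p6 matched 5 of the 9 genes, and each was shortened to the bases before the first annotated start. The windows are chr9:37552905-37552995 on the minus strand for Nrgn, chr16:96467356-96467605 on the plus strand for Pcp4, chr11:6065749-6065998 on the minus strand for Camk2b and chr3:126596701-126596950 on the plus strand for Camk2d. Capitals mark matches, on either strand, to the E-box, GC box, cyclic AMP response element core or TATA box, spelled out after the sequences.
Nrgn: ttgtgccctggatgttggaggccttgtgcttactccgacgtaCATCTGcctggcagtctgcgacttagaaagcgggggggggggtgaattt
Pcp4: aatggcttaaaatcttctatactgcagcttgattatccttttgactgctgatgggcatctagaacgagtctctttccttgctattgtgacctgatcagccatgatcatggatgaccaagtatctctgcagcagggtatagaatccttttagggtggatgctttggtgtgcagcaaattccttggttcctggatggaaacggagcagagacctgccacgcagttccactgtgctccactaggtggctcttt
Camk2b: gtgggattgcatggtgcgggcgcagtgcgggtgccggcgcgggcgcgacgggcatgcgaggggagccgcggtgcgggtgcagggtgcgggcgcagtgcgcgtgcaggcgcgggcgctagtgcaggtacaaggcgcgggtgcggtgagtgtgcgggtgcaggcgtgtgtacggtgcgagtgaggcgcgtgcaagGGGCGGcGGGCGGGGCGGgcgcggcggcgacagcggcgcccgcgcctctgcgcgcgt
Camk2d: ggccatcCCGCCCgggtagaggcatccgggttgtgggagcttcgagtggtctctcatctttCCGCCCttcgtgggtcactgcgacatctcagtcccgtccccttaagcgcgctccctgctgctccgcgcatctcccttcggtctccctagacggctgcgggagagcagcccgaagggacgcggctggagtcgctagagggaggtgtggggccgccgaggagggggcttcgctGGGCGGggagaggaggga
The 91 bases of Nrgn held 1 match to the E-box motif CANNTG, which 31.8% of 32851 RefSeq promoters hold in a window of that length. That share was counted in the bases next to the RefSeq start, while the Nrgn bases lie farther upstream of it, so the positions differ. The 250 bases of Camk2b and those of Camk2d each held 3 matches to the GC box motif GGGCGG, and 2 of those in Camk2b overlap by 1 base. A match to it was present in 32.7% of windows of that length. In the 250 bases of Pcp4 no motif matched, while CANNTG is held by 66.2% of windows of that length. The core of the cyclic AMP response element was searched as TGACG and was found in none of the 4 windows. It is held by 17.8% of windows of 250 bases and 9.89% of windows of 91 bases. The TATA box was searched as the letters TATAAA, likewise with no match, and 12.4% and 5.18% of such windows hold it. The matches describe these letters only.

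Each library held all 10 pan-neuronal markers, with a sum of 4013 to 5064 TPM in P3 layer 2, 5933 to 7121 TPM in P3 layer 3, 5811 to 6569 TPM in P7 layer 2 and 6514 to 7434 TPM in P7 layer 3. Values given below for the 4 groups without their names follow this order. The 9 markers of upper-layer glutamatergic neurons were likewise above 0 in every group. RNA of other cells was present as well. In the same order of groups, 9 astrocyte markers summed to 661 to 748, 146 to 406, 487 to 1442 and 254 to 1047 TPM. The 8 progenitor markers summed to 4038 to 6802, 725 to 1804, 1006 to 2703 and 389 to 1408 TPM. The 8 microglia markers summed to 1173 to 2397, 730 to 1315, 569 to 1509 and 470 to 1563 TPM. At P3, 7 of the 7 tested progenitor markers, 7 of 8 cell cycle genes and 5 of 9 astrocyte markers were higher in layer 2. In the same comparison 5 of the 9 upper-layer glutamatergic markers, with a median difference of -0.52, and 2 of 10 pan-neuronal markers were lower. Of all tested genes 4.87% were called higher and 4.18% lower there. In such bulk samples fewer neurons and less RNA per neuron cannot be told apart. In 1 alternative 3 libraries were left out together, namely P3 layer 2 replicate 2, P3 layer 3 replicate 1 and P7 layer 3 replicate 1. They were picked with earlier results known and by no fixed rule. Among all 12, the microglia score peaked in the first of these, the choroid plexus score in the second and the oligodendrocyte lineage score in the third. Other libraries deviated too. The astrocyte score, a mean of log2(TPM + 1), was highest in P7 layer 2 replicate 2, at 6.88 against 5.27 and 5.79 in the rest of its group, and in P3 layer 3 replicate 2 it was 4.97 against 3.29 and 3.66.

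**Figure D1:**
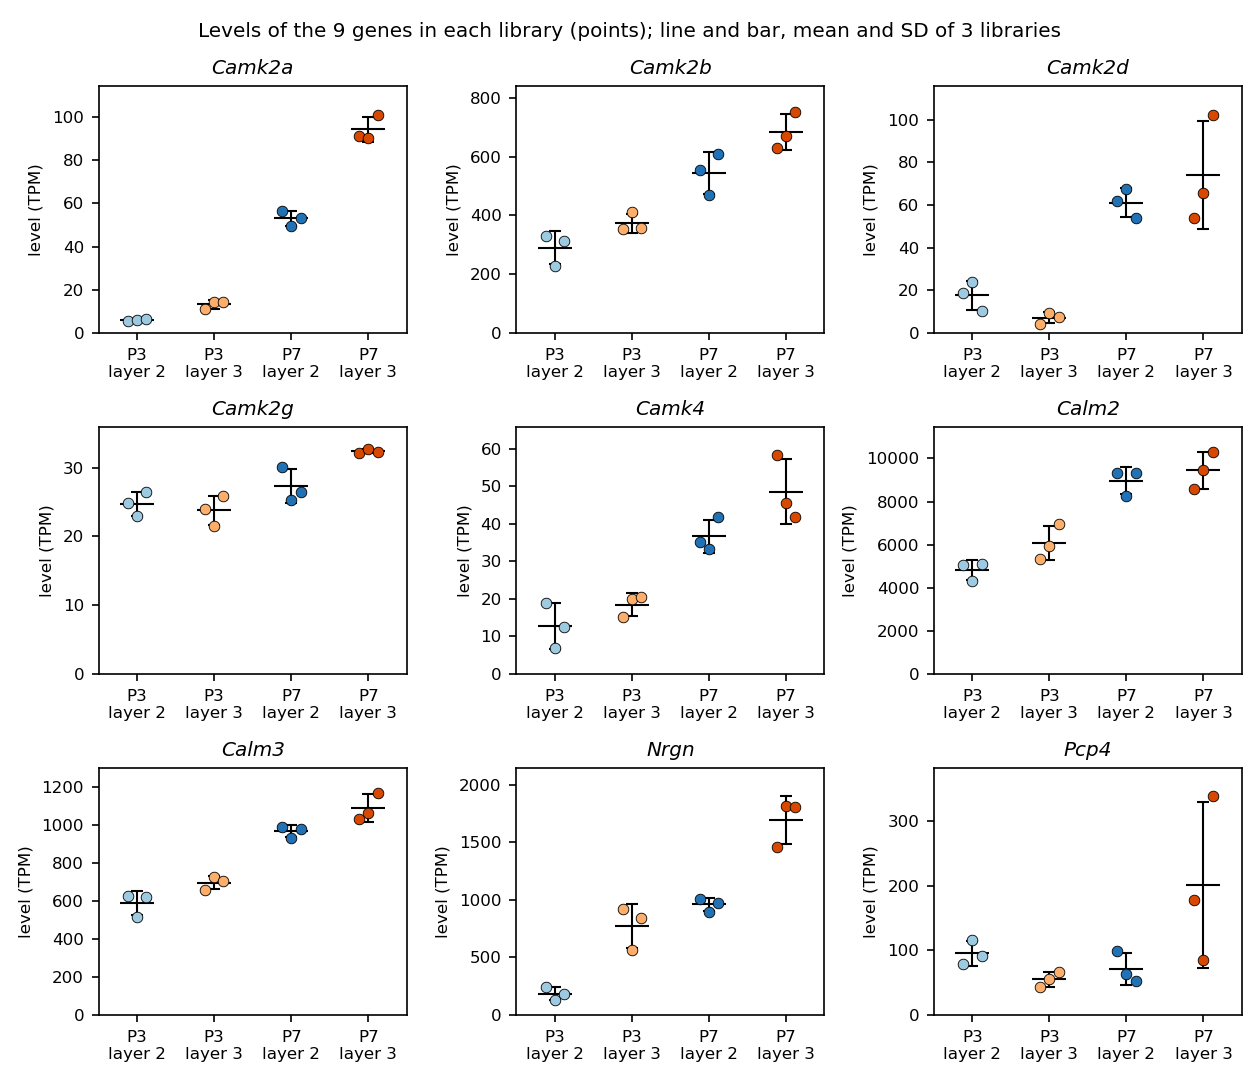
Level in TPM (y axis, linear, from 0) of the 9 genes in each of the 12 libraries (points) by group (x axis), with the mean and SD of 3 libraries as line and bar. Camk2a, Camk2b and Calm3 step up from the left to the right group with no overlap, while Camk2g stays between 21.5 and 32.7 TPM.

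Camk2a, the alpha subunit of CaMKII, rose strongly with age in both layers. Its level was 5.46, 6.17 and 6.48 TPM in the P3 layer 2 libraries and 11, 14.2 and 14.5 TPM in those of P3 layer 3. At P7 it was 56.6, 49.5 and 53.4 TPM in layer 2 and 91.3, 90.4 and 101 TPM in layer 3. No group overlapped another, and the layer 3 libraries were above the layer 2 libraries at each age. From P3 to P7 the log2 level rose by 2.95 ± 0.15 (SE) in layer 2 (limma adjusted p = 1.26e-07) and by 2.75 ± 0.15 in layer 3 (limma adjusted p = 6.12e-07). These were the 55th and 66th largest absolute changes among the 17606 tested genes. Here and below a difference is on the log2(TPM + 1) scale, and a gene was called when its p, adjusted over all tested genes, was under 0.05.

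Camk2a was also lower in layer 2 than in layer 3 at P3, by a log2 difference of -1.01 ± 0.15 (limma adjusted p = 0.00151). At P7 the log2 difference was -0.82 ± 0.15 (limma adjusted p = 0.0332). The P7 call did not survive leaving out any 1 of the 6 P7 libraries, with adjusted p from 0.0765 to 0.197, although the value stayed between -0.86 and -0.76.

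Camk2b, the beta subunit, was by far the most abundant CaMKII subunit. It was measured at 330, 228 and 314 TPM in P3 layer 2, 352, 411 and 356 TPM in P3 layer 3, 556, 468 and 609 TPM in P7 layer 2 and 630, 669 and 752 TPM in P7 layer 3. The 4 groups were again apart and in the same order as for Camk2a, over a much narrower span. Camk2b rose with age by 0.91 ± 0.15 in layer 2 (limma adjusted p = 0.000581) and by 0.87 ± 0.15 in layer 3 (limma adjusted p = 0.00116). Its layer difference was not called, at -0.38 ± 0.15 at P3 (limma adjusted p = 0.131) and -0.33 ± 0.15 at P7 (limma adjusted p = 0.478).

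Camk2d, the delta subunit, which many tissues outside the brain also express, changed most with age in layer 3. It stood at 18.8, 23.7 and 10.2 TPM in P3 layer 2 and at 4.46, 9.54 and 7.69 TPM in P3 layer 3, so the groups were apart at P3 by a narrow margin. At P7 it reached 61.8, 67.3 and 54.1 TPM in layer 2 and 53.6, 65.7 and 102 TPM in layer 3, where the layers overlapped. It rose by 1.81 ± 0.31 in layer 2 (limma adjusted p = 0.00097) and by 3.19 ± 0.31 in layer 3 (limma adjusted p = 2.73e-05), the 24th largest absolute change of all tested genes in that layer. At P3 it was higher in layer 2, by 1.15 ± 0.31 (limma adjusted p = 0.036). That call was the least stable of those at P3. It was lost when a single library was left out, namely replicate 1 or 2 of P3 layer 2, replicate 1 or 3 of P3 layer 3, replicate 3 of P7 layer 2 or replicate 2 of P7 layer 3 (adjusted p from 0.0507 to 0.157). It was also lost with log2(TPM + 5) (0.0534), with no filter (0.0654), with the P3 groups alone in the fit (0.105) and with the microglia or astrocyte marker score in the fit (0.0581 and 0.233). Without the 3 libraries named above the difference was 0.64 ± 0.29 (adjusted p = 0.273), and the part of other cells in it was not tested.

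Camk2g, the gamma subunit, moved least. Its 12 values lay between 21.5 and 32.7 TPM, with 24.8, 23.0 and 26.4 TPM in P3 layer 2, 24.0, 21.5 and 25.8 TPM in P3 layer 3, 30.1, 25.3 and 26.5 TPM in P7 layer 2 and 32.1, 32.7 and 32.3 TPM in P7 layer 3. The age difference was 0.13 ± 0.14 in layer 2 (limma adjusted p = 0.523) and 0.43 ± 0.14 in layer 3 (limma adjusted p = 0.0426). The layer 3 call was lost when any of 11 of the 12 libraries was left out in turn (adjusted p from 0.0524 to 0.102). It was also lost with no filter (0.0526), the layer 3 groups alone (0.125), the astrocyte score (0.06) and the 3 libraries left out (0.11), and the difference shrank to 0.24 under median-ratio scaling (0.327) and 0.19 under quantile normalization (0.436).

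The makeup of CaMKII transcripts differed between the groups. The 4 subunits summed to 339 ± 51.6 (SD, n = 3), 418 ± 34.5, 686 ± 68.2 and 884 ± 93.1 TPM in the 4 groups, in the order given above. Camk2a made up 1.82 ± 0.379%, 3.17 ± 0.397%, 7.78 ± 0.513% and 10.7 ± 0.555% of that sum. Its share was apart between all 4 groups, being highest, at 10.2 to 11.3%, in P7 layer 3. Camk2b held 85.4 ± 3.69%, 89.4 ± 1.10%, 79.2 ± 2.65% and 77.4 ± 1.09%, so it remained the main subunit throughout. The ratio of Camk2b to Camk2a was 48.6 ± 11.7, 28.6 ± 3.78, 10.2 ± 1.04 and 7.24 ± 0.301.

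**Figure D2:**
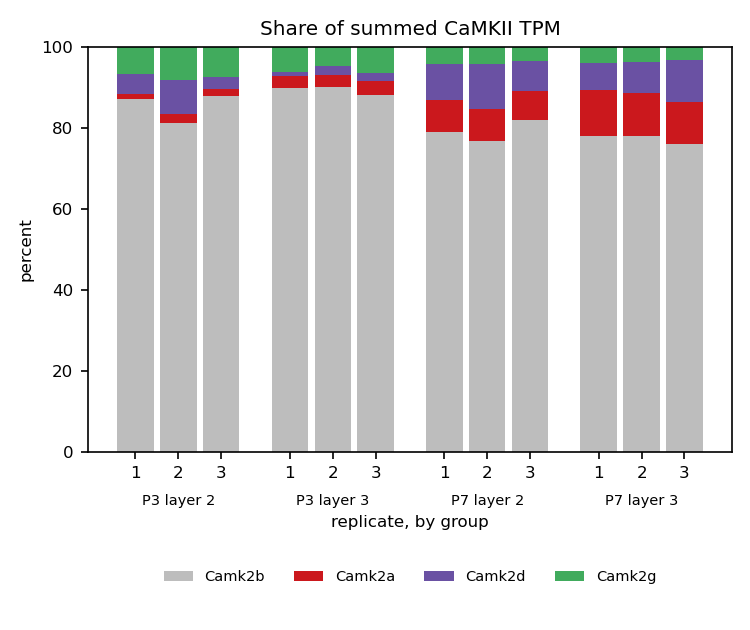
Share in percent (y axis) of each subunit gene in the summed TPM of the 4 CaMKII genes, with 1 stacked bar per library (x axis). Camk2a grows from 1.44 to 2.20% in P3 layer 2 to 10.2 to 11.3% in P7 layer 3.

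Camk4 encodes CaMKIV, a kinase that works largely in the nucleus. Its levels were 19.0, 6.90 and 12.6 TPM in P3 layer 2, 15.1, 20.0 and 20.4 TPM in P3 layer 3, 35.0, 33.3 and 41.7 TPM in P7 layer 2 and 58.3, 45.6 and 41.8 TPM in P7 layer 3. The ages were apart in each layer, and the layers overlapped at P3. Camk4 rose by 1.54 ± 0.27 in layer 2 (limma adjusted p = 0.00118) and by 1.34 ± 0.27 in layer 3 (limma adjusted p = 0.00401). The layer difference was not called at P3 (-0.58 ± 0.27, limma adjusted p = 0.215). It turned on single libraries of P3 layer 2. Without replicate 1, the highest of that group, it was -0.90 and was called (adjusted p = 0.0483), and without replicate 2, the lowest, it was -0.23 (adjusted p = 0.652).

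Calm2 and Calm3 each encode the same calmodulin protein from separate loci, so reads could be shared between them, and their split is uncertain. Calm2 was the most abundant of the 9 genes, at 5078, 4297 and 5090 TPM in P3 layer 2, 5357, 5931 and 6947 TPM in P3 layer 3, 9335, 8236 and 9339 TPM in P7 layer 2 and 8577, 9465 and 10298 TPM in P7 layer 3. It rose with age by 0.90 ± 0.13 in layer 2 (limma adjusted p = 0.000217) and by 0.64 ± 0.13 in layer 3 (limma adjusted p = 0.00317), and the layers overlapped at P7. Under median-ratio scaling the layer 3 change was 0.44 ± 0.20 and was no longer called (adjusted p = 0.134).

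Calm3 was apart in all 4 groups, at 624, 514 and 622 TPM in P3 layer 2, 657, 727 and 705 TPM in P3 layer 3, 989, 929 and 979 TPM in P7 layer 2 and 1030, 1060 and 1169 TPM in P7 layer 3. It rose by 0.72 ± 0.10 in layer 2 (limma adjusted p = 0.000234) and by 0.64 ± 0.10 in layer 3 (limma adjusted p = 0.00081). The layer difference was not called at P3 for Calm2 (-0.33 ± 0.13, limma adjusted p = 0.122) or Calm3 (-0.25 ± 0.10, limma adjusted p = 0.15). The ratio of Calm2 to Calm3 was 8.23 ± 0.119, 8.73 ± 0.978, 9.28 ± 0.360 and 8.69 ± 0.320 in the 4 groups.

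Nrgn showed the largest layer difference of the 9 genes at P3. It was measured at 242, 127 and 186 TPM in P3 layer 2 but at 918, 560 and 843 TPM in P3 layer 3. At P7 it reached 1009, 897 and 976 TPM in layer 2 and 1456, 1814 and 1808 TPM in layer 3. All P3 layer 2 values were therefore far below every other group, whereas P3 layer 3 and P7 layer 2 overlapped. The log2 difference between layers at P3 was -2.08 ± 0.21 (limma adjusted p = 0.000204), the 153rd largest in absolute size, and over both ages it was -1.44 ± 0.15 (limma adjusted p = 0.000169). At P7 the layers were apart, at -0.81 ± 0.21, but the difference was not called (limma adjusted p = 0.137). It was called without the 3 libraries named above (adjusted p = 0.0461), with only the P7 groups in the fit (0.0181), with quantile normalization (0.0465) and with the microglia marker score in the fit (0.0494).

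With age Nrgn rose by 2.42 ± 0.21 in layer 2 (limma adjusted p = 5.83e-06) and by 1.15 ± 0.21 in layer 3 (limma adjusted p = 0.00226). The pan-neuronal marker sum was also lower in P3 layer 2. Nrgn was set against Gap43, the growth cone protein that belongs to the same family of calmodulin-binding proteins. Gap43 itself averaged 2035, 2587, 3085 and 3208 TPM in the 4 groups, so it is no measure of neuron content. The part of neuron content in the Nrgn values cannot be told from the ratio. Nrgn amounted to 8.96 ± 1.75% of the Gap43 level in P3 layer 2, 29.9 ± 6.58% in P3 layer 3, 31.1 ± 0.423% in P7 layer 2 and 52.7 ± 2.81% in P7 layer 3. The P3 layer 2 ratios, from 7.46 to 10.9%, did not overlap those of the other groups.

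Pcp4 is known from Purkinje cells and from subsets of cortical neurons. It differed from the other genes in the sign of its age difference in layer 2, which was not called. Like Camk2d, it had ranges apart at P3 and higher in layer 2. Its levels were 79.1, 116 and 90.9 TPM in P3 layer 2 and 43.6, 56.2 and 66.4 TPM in P3 layer 3, apart and higher in layer 2. At P7 they were 99.9, 63.3 and 52.5 TPM in layer 2 and 178, 85.5 and 339 TPM in layer 3, where 1 library of each layer overlapped the other layer. Pcp4 rose with age in layer 3 by 1.65 ± 0.38 (limma adjusted p = 0.0082). In layer 2 the age difference was -0.44 ± 0.38 and was not called (limma adjusted p = 0.434). The layer difference was 0.78 ± 0.38 at P3 (limma adjusted p = 0.235) and -1.31 ± 0.38 at P7 (limma adjusted p = 0.189), neither of them called. The P7 value was -1.81 and was called without P7 layer 3 replicate 2 (adjusted p = 0.0494), the lowest of its group, and was -0.82 without replicate 3, the highest (adjusted p = 0.516). Without the 3 libraries named above the layer 3 age difference was 1.47 ± 0.51 and lost its call (adjusted p = 0.0968). Deep-layer cortical neurons are also known to express Pcp4. The 8 deep-layer markers summed to 113 to 162, 82.9 to 150, 90.5 to 133 and 131 to 174 TPM in the 4 groups, and the 9 interneuron markers to 203 to 277, 201 to 311, 91.1 to 124 and 83.7 to 318 TPM. Their part in the Pcp4 values was not tested.

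**Figure D3:**
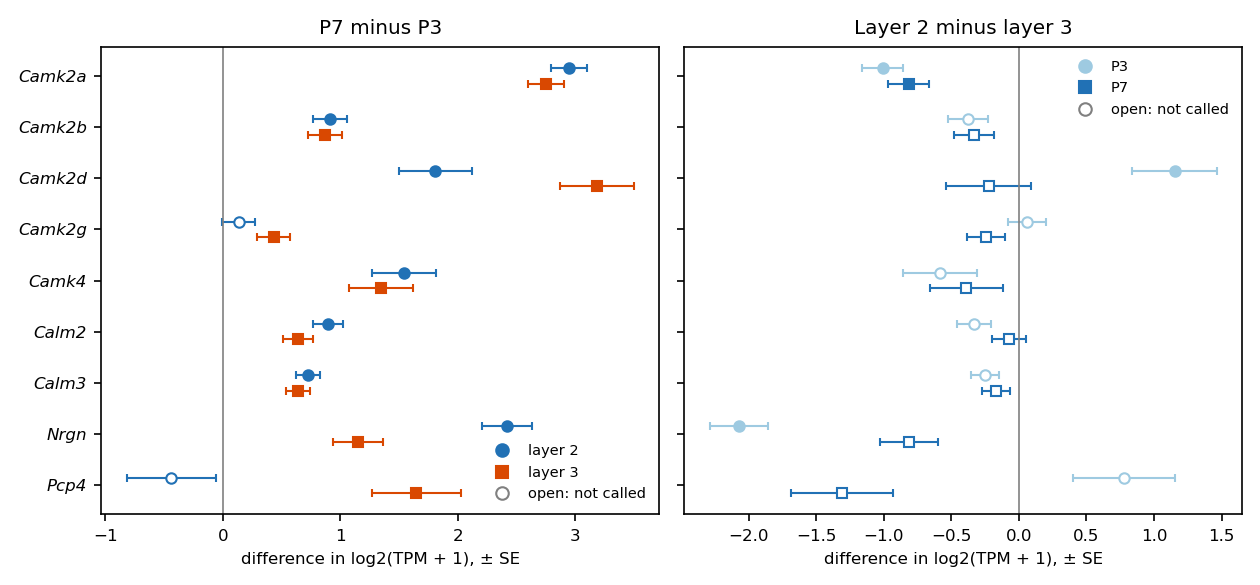
Difference in log2(TPM + 1) with its standard error (x axis) for each of the 9 genes (y axis), for P7 minus P3 in each layer (left) and for layer 2 minus layer 3 at each age (right); filled symbols were called at an adjusted p under 0.05. Of the 9 genes, 7 are filled for layer 2 and 9 for layer 3 on the left, against 3 for P3 and 1 for P7 on the right.

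Counted together, 7 of the 9 genes rose with age in layer 2 and none fell, in a comparison where 24.3% of all tested genes were called, 15% as higher at P7. In layer 3 all 9 rose, where 20.8% of tested genes were called and 14.4% were higher. The median difference of the 9 genes was 0.91 in layer 2 and 1.15 in layer 3, against medians over all tested genes of 0.03 and 0.17. The layer 3 median of all genes moved to 0.01 under median-ratio scaling and to -0.02 under quantile normalization. Relative to it the layer 3 rises are smaller by about that shift, and 7 and 8 of the 9 genes were called under these scalings.

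Between layers, 1 gene (Camk2d) was higher and 2 (Camk2a and Nrgn) were lower in layer 2 at P3, where 9.05% of tested genes were called, 4.87% as higher and 4.18% as lower. At P7 1 gene was lower, Camk2a, where 0.5% were called and 0.381% were lower. Over both ages Camk2a and Nrgn were lower, with 7.93% of all tested genes called and 3.9% lower. The TPM ranges of the layers did not overlap for 7 of the 9 genes at P3 and 6 of the 9 at P7, where 27% and 20% of tested genes had ranges apart. At P7 all 6 lay lower in layer 2, as did 11.9% of tested genes. Of these 6 only Camk2a was called. The Camk4 ranges were apart by a narrow margin, from 41.67 TPM as the highest layer 2 value to 41.77 TPM as the lowest of layer 3 (limma adjusted p = 0.695). The ordering of all 4 groups without overlap, seen for Camk2a, Camk2b and Calm3, occurred in 141 tested genes, or 0.801%. Only this order, the one these genes showed, was counted, so the share is a description. It was also seen in Snap25 and Syt1 among the 10 pan-neuronal markers and in Slc17a7 among the 9 upper-layer glutamatergic markers. Of the 84 genes of the wider pathway described below, 4 showed it (Ppp3r1, Camta2, Grin1 and Syn1).

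Whether age acted differently in the 2 layers was tested as the difference of the age changes. By limma none of the 9 genes was called, in a comparison where 0.182% of tested genes were, and 3 of the 9 had an unadjusted p under 0.05, as did 11.4% of tested genes. Nrgn had an age change larger in layer 2 by 1.26 ± 0.30 (limma adjusted p = 0.117). Pcp4 had one smaller in layer 2, by -2.08 ± 0.54 (limma adjusted p = 0.146), and Camk2d likewise, by -1.38 ± 0.44 (limma adjusted p = 0.233). Leaving out P3 layer 3 replicate 2 brought Nrgn to an adjusted p of 0.0354, and leaving out P7 layer 3 replicate 2 brought Pcp4 to 0.0472.

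The pan-neuronal marker score differed between these groups. Its mean log2 value was 7.54 ± 0.24, 7.95 ± 0.10, 8.17 ± 0.10 and 8.55 ± 0.10 in the 4 groups, and 90.2% of its variance lay between groups. Its members did not move as one. In layer 3 Snap25, Syt1 and Nefl rose with age, by 2.00, 1.73 and 3.40, while Tubb3 and Elavl3 fell by 0.40 and 0.58 (limma adjusted p = 0.0428 and 0.00836). The median of the 10 was 0.09 in layer 3, against 0.17 over all tested genes. In layer 2, 5 of the 10 were called higher at P7 and 0 lower, where 15% of tested genes were called higher. Their median there was 0.51, against 0.03 over all tested genes. For layer 2 minus layer 3 at P3 it was -0.38, against 0.06 over all tested genes and -0.33 for the 9 genes. How the score relates to the number of neurons in a library was not tested. With it as a covariate, chosen after seeing the data, the age changes of Camk2a were the only called differences of the 9 genes, at 2.78 (limma adjusted p = 0.00204) in layer 2 and 2.60 (limma adjusted p = 0.00361) in layer 3. In that fit 98 genes of the whole table were called in each layer. Of the other genes named here, only called genes of the pathway lists were looked at in that fit. Among them, the age changes of Rcan2, a calcineurin regulator, kept their calls in both layers (limma adjusted p = 0.0314 and 0.0419). So did that of Itpka, an inositol trisphosphate kinase, in layer 2 (0.0163). The layer difference of Nrgn at P3 was -1.66 (limma adjusted p = 0.0776), where 17 genes of the whole table were called. Because the score and the groups nearly coincide, they cannot be told apart by this fit.

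The wider pathway was counted over 84 genes in 7 lists, of which 81 were tested. With age, 46 were higher and 2 lower in layer 2, and 35 were higher and 2 lower in layer 3, where 15% and 14.4% of all tested genes were called higher. Their median differences were 0.72 and 0.57. Between layers at P3, 10 were lower and 1 higher in layer 2, where 4.18% of all tested genes were called lower and 4.87% higher. At P3, 25 of the 81 had an unadjusted p under 0.05, against 23.8% of all tested genes. At P7 limma called none of the 81, where 0.5% of all tested genes were called. There 7 had an unadjusted p under 0.05, against 9.92% of all tested genes. These shares over all tested genes also apply to the counts of the single lists below. Some calls given below for these lists were lost with the astrocyte score in the fit, namely those at P3 of Camkv, Grin1 and Mef2c (limma adjusted p = 0.0513, 0.0755 and 0.174) and those in layer 3 of Mef2a and Marcksl1 (0.0987 and 0.0744).

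The list of other calmodulin loci held 4 genes, of which 1, Calml4, was tested. It encodes a calmodulin-like protein known from the brush border of the intestine, and it went against most of the pathway. Its level was 12.8 ± 5.86 TPM in P3 layer 2, 3.16 ± 0.726 TPM in P3 layer 3, 1.73 ± 1.17 TPM in P7 layer 2 and 0.636 ± 0.184 TPM in P7 layer 3. It fell with age by 2.35 in layer 2 (limma adjusted p = 0.00065) and by 1.34 in layer 3 (limma adjusted p = 0.0254), and at P3 it was higher in layer 2 by 1.66 (limma adjusted p = 0.0175). The layer 3 call was lost without any 1 of replicates 1 and 3 of P3 layer 3 and replicates 1 and 2 of P7 layer 3 (adjusted p from 0.0608 to 0.0844), and the P3 call without replicate 2 or 3 of P3 layer 2 (0.089 and 0.0572). With the astrocyte score both were lost (0.147 and 0.104). Of the 24 alternatives, 9 lost the layer 3 call and 6 the P3 call. The P7 layer 3 level was below the 1 TPM used as the filter.

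Among 12 genes of the CaM kinase cascade and its inhibitors, 9 were higher at P7 in layer 2 and 5 in layer 3, with none lower. They included Camk2n1, a CaMKII inhibitor, which stood at 8.45 ± 1.04 TPM at P3 and 31.7 ± 5.48 TPM at P7 in layer 2, and at 11.95 ± 4.25 and 56.9 ± 2.50 TPM in layer 3. Its rise was 1.78 ± 0.22 in layer 2 and 2.21 ± 0.22 in layer 3 (limma adjusted p = 9.43e-05 and 3.12e-05). Camkk2, a kinase that activates CaMKIV, rose by 1.40 ± 0.24 and 1.17 ± 0.24 (limma adjusted p = 0.000944 and 0.0044). At P3 2 genes of the list were lower in layer 2. One was Camkv, a kinase-like calmodulin-binding protein, at 166 ± 32.2 against 318 ± 30.1 TPM (log2 difference -0.95 ± 0.14, limma adjusted p = 0.00156).

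Of 13 genes for calcineurin, the calmodulin-dependent phosphatase, and its regulators, 8 were higher at P7 in layer 2 and 9 in layer 3. Rcan2, a calcineurin regulator, rose from 6.36 ± 0.895 to 31.7 ± 3.80 TPM in layer 2 and from 8.14 ± 1.48 to 34.8 ± 2.35 TPM in layer 3. Akap5, which anchors calcineurin at the postsynaptic membrane, rose by 1.61 ± 0.24 and 1.25 ± 0.24 (limma adjusted p = 0.000325 and 0.00271). At P3 limma called none of the 13 between layers, and 4 had an unadjusted p under 0.05, as did 23.8% of all tested genes.

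Of 15 calmodulin-regulated enzymes and pumps, 10 were higher at P7 in layer 2 and 9 in layer 3. Itpka, a calmodulin-activated inositol trisphosphate kinase of spines, rose from 4.53 ± 0.230 to 57.1 ± 8.02 TPM in layer 2 and from 8.45 ± 2.90 to 55.1 ± 12.4 TPM in layer 3. The phosphodiesterase Pde1a rose by 2.46 ± 0.24 and 2.31 ± 0.24 (limma adjusted p = 1.18e-05 and 3.29e-05). At P3 3 genes of this list were lower in layer 2. Atp2b2, a plasma membrane calcium pump, stood at 26.4 ± 4.93 against 79.1 ± 6.18 TPM (log2 difference -1.56 ± 0.15, limma adjusted p = 0.00018). Adcy8, a calcium-stimulated adenylyl cyclase, was near 1 TPM in layer 2, at 0.950 ± 0.379, and at 5.28 ± 2.00 TPM in layer 3 (log2 difference -1.65 ± 0.30, limma adjusted p = 0.00475).

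Among 14 CaMKII substrates and anchors, 10 were higher at P7 in layer 2 and 6 in layer 3. The receptor subunits Grin1 (NMDA type) and Gria1 (AMPA type) rose by 1.77 ± 0.16 and 1.59 ± 0.20 in layer 2 and by 1.32 ± 0.16 and 1.72 ± 0.20 in layer 3, each with a limma adjusted p of at most 9.68e-05. Grin1 was also lower in layer 2 at P3, at 28.9 ± 5.33 against 49.6 ± 7.28 TPM (limma adjusted p = 0.00854).

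The list of CaMKIV nuclear targets held 10 genes, without Camk4 itself, which is described above. Of these, 3 were higher and 1 lower at P7 in layer 2, and 2 were higher in layer 3. The lower gene, Crtc3, a CREB coactivator, stood at 7.73 ± 1.28 against 4.11 ± 0.589 TPM (limma adjusted p = 0.0446), and its call was lost when any of 9 of the 12 libraries was left out in turn (adjusted p up to 0.152). Mef2a, a transcription factor under calcium control, rose by 1.15 ± 0.24 in layer 2 and by 1.04 ± 0.24 in layer 3 (limma adjusted p = 0.00325 and 0.00746), the latter being 0.64 without the 3 libraries named above (0.0394). At P3 the level of Mef2c, of the same family, was 945 ± 199 TPM for layer 2 against 1518 ± 90.5 TPM for layer 3 (limma adjusted p = 0.00944). The 16 other calmodulin-binding proteins counted 6 higher in layer 2, and 4 higher and 1 lower in layer 3. The one that fell in layer 3 was Marcksl1, an actin-regulating MARCKS relative, by a log2 difference of -0.45 ± 0.10 (limma adjusted p = 0.00878).

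**Figure D4:**
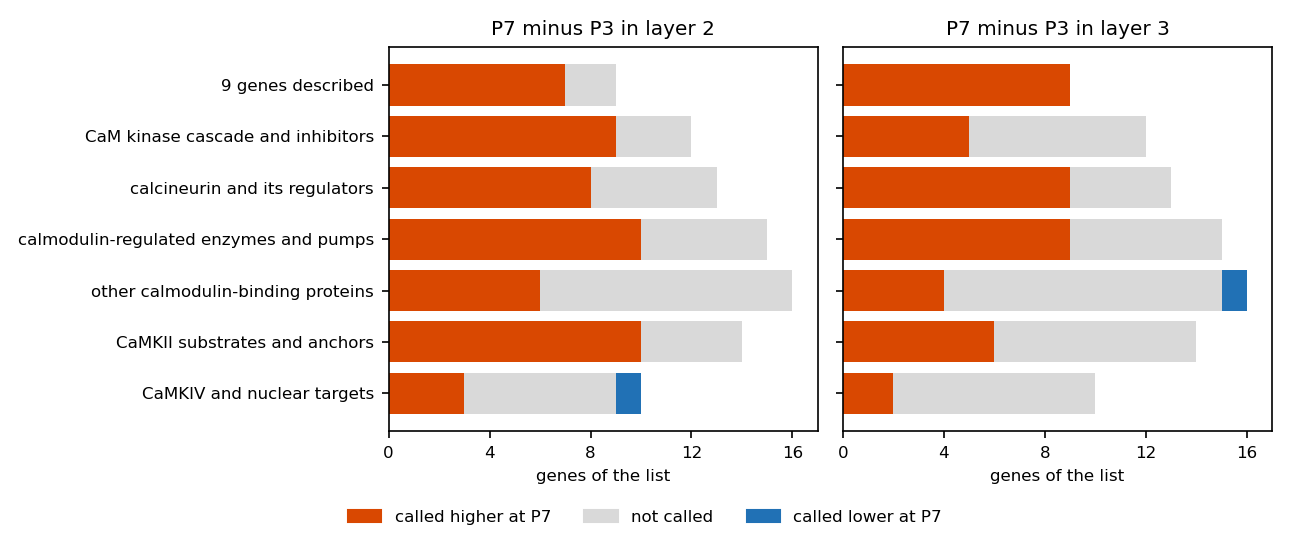
Number of genes (x axis) called higher at P7, not called and called lower at P7 in layer 2 (left) and layer 3 (right), for the 9 genes and 6 of the 7 lists of the pathway (y axis), leaving out the other calmodulin loci with 1 tested gene. The list of calmodulin-regulated enzymes and pumps has 10 and 9 of its 15 genes higher at P7, while that of CaMKIV and nuclear targets has 3 and 2 of 10. Despite its label, the latter list does not hold Camk4, which is among the 9 genes.

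The genes whose level ran most nearly parallel to 3 of the 9 were found by the Pearson correlation of log2(TPM + 1) over the 12 libraries. The ranking covered 10804 tested genes with a mean of at least 5 TPM. Predicted or clone names (Gm with digits, names ending in Rik or holding a dot) were left out of it. The libraries share groups, so the values are descriptions. Nearest to Nrgn were Cgref1 (r = 0.993), Stx1a (0.989), Hpca (0.989), Reep2 (0.988) and Rasl10a (0.983). Hpca encodes the neuronal calcium sensor hippocalcin, and it averaged 140 ± 13.2, 346 ± 53.6, 433 ± 56.9 and 651 ± 64.9 TPM over the groups. Nearest to Camk2a were Slc6a7 (0.995), Omg (0.994), Syp (0.991), Slc17a7 (0.990) and Snap25 (0.989), of which Syp and Snap25 encode synaptic vesicle and release proteins and Slc17a7 the vesicular glutamate transporter. Nearest to Pcp4 was Calb2 (0.960), which encodes the calcium-binding protein calretinin and averaged 20.2 ± 8.66, 7.16 ± 2.27, 11.8 ± 2.37 and 51.7 ± 41.3 TPM. It was followed by Polr3gl (0.918), Cacna2d3 (0.861), Dtwd2 (0.841) and Zfp280d (0.839).

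Among the 9 genes themselves, Camk2b and Calm3 ran most nearly in parallel, at r = 0.986 over the 12 libraries and 0.912 after the group means were removed. Camk2a and Nrgn had r = 0.878 over all libraries but -0.356 within groups. The lowest pair was Nrgn and Pcp4, with r = 0.185.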

How the data were processed

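Per the submitters' processing notes, reads were handled with HISAT2, StringTie and featureCounts on GRCm39, whose versions, strandedness and handling of multi-mapped reads are not given in the sources used here. Per the labels' protocols, RNA was purified with an RNeasy mini kit and libraries were made with a SMART-Seq mRNA LP kit. The authors deposited TPM values for 56734 genes in 12 columns, each summing to 1000000 within rounding, so depth is unknown.

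A limma-trend model of log2(TPM + 1) with a mean for each group (R 4.3.3 with limma 3.58.1) was run over the 17606 genes that reached 1 TPM in 3 or more libraries, with 8 residual degrees of freedom. In all 6 comparisons were made, namely layer 2 minus layer 3 at P3, at P7 and over both ages, P7 minus P3 in each layer, and the difference of the age changes. The threshold for a call was 0.05 after Benjamini-Hochberg adjustment across every tested gene. With 3 libraries a side, exact permutation could reach 0.1 at best. Each library was 1 pool of pups, and p-values measure the spread between pools. The procedure was tested on simulated data.

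The 9 genes, the 7 pathway lists and the 11 marker lists were chosen with earlier results of these data known. Genes named besides the 9 were up to 3 called genes per list, comparison and direction by size of change. The 5 genes most correlated with each of Nrgn, Camk2a and Pcp4 were named too. They came from genes with a mean of at least 5 TPM and no predicted or clone name. Gap43 was named as a member of one of these lists. One further gene is not reported here. Not every gene under the rule is described. Promoters came from RefSeq on GRCm38.p6, a build other than that of the deposited table, and were matched by symbol. Besides the main settings, 23 alternatives were planned (other pseudocounts, filters and scalings, the compared groups alone, a replicate block, marker scores as covariates, 3 libraries left out together, and each of the 12 libraries left out in turn), and 1, the pan-neuronal score as a covariate, was chosen after seeing the data.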

Additional observations from a re-analysis of the deposited data

How the results depend on the processing

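Of 2710 recomputed differences of single genes, 2406 kept their direction and their side of the threshold, 257 lost and 12 gained a call, and 35 turned sign. At P3 the number of the 9 genes called between layers fell from 3 to 0 with the pan-neuronal score as covariate, was 2 with log2(TPM + 5), no filter, the compared groups alone, the astrocyte or microglia score and without the 3 libraries left out together, each through the loss of Camk2d, and lay between 2 and 3 when single libraries were left out. At P7 it fell from 1 to 0 with log2(TPM + 0.1), with the replicate block and with the pan-neuronal score, rose to 2 with quantile normalization, with the compared groups alone, without those 3 libraries and with the microglia score, and lay between 0 and 1 when single libraries were left out. Over both ages it was 2, with 0 under the pan-neuronal score, 3 with the filter at 5 TPM and with quantile normalization, where Camk2b joined (adjusted p = 0.0491 and 0.0481), and 2 to 4 when single libraries were left out. The 4 came without P3 layer 2 replicate 1, where Camk2b (adjusted p = 0.0403) and Camk4 (0.037) joined. The age counts of 7 in layer 2 and 9 in layer 3 each became 1 under the pan-neuronal score. With single libraries left out they stayed at 7 and at 8 to 9. For the difference of age changes the count was 0, and 1 when replicate 2 of P3 layer 3 or replicate 2 of P7 layer 3 was left out, so 0 to 1 over single libraries. The cause of these shifts was not tested.

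Nothing in the labels says that a replicate number marks shared animals, and the pairing was not carried by every pair. Of 18 same-numbered pairs 5 had deviations correlated over 0.1 (median r 0.039, from -0.189 to 0.214, against a median of -0.021 for differently numbered pairs), and 7 of 12 libraries matched their own number best. With the replicate block, Camk2a at P7 had an adjusted p of 0.0587 and Camk2g in layer 3 one of 0.0601, and the table-wide counts changed from 1593 to 1524 at P3 and from 88 to 68 at P7. Table-wide counts ran over all alternatives from 17 to 1974 at P3, 4 to 152 at P7, 5 to 1693 over both ages, 98 to 5123 in layer 2, 98 to 5225 in layer 3 and 8 to 102 for the difference of age changes (main 32). Without the 3 libraries they were 591 at P3 and 2045 in layer 3. The share of called genes that were higher at P7 in layer 3 was 69.2%, and 49.97% and 49.68% under median-ratio scaling and quantile normalization.

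Most sign turns were of differences not called, but under the pan-neuronal score 5 called ones turned, of Ppp3ca over both ages (from -0.408), Mef2d in layer 2 (from 0.723) and Camkk2, Camta1 and Mef2d in layer 3 (from 1.166, 0.595 and 0.571). For the layer difference at P3, Camk2g became -0.024 under median-ratio scaling and -0.009 with replicate 2 of P3 layer 3 left out (-0.009 to 0.116 over single libraries). At P7 Camk2d ran from -0.425 to 0.034 when single libraries were left out. In layer 2 the age difference of Camk2g became -0.024 under quantile normalization. For the difference of age changes, Camk2a became -0.052 with log2(TPM + 5) and Calm2 -0.031 under quantile normalization. There Camk2b became -0.139 without the 3 libraries, -0.025 with the astrocyte and -0.05 with the microglia score, and ran from -0.122 to 0.148 when single libraries were left out, below 0 for 4 of them (among them P3 layer 2 replicate 2). Calm3 became -0.005 without the 3 libraries and ran from -0.01 to 0.137 over single libraries, and Camk4 from -0.158 to 0.511, each below 0 only without P3 layer 2 replicate 2. Under the pan-neuronal score, the layer difference at P3 became 0.125 for Camk2b, 0.155 for Camk4 and 0.027 for Calm3. At P7 it became 0.124 for Camk2b, 0.285 for Camk4, 0.175 for Calm2 and 0.085 for Calm3. Over both ages it became 0.125 for Camk2b, 0.002 for Camk2g, 0.22 for Camk4, 0.059 for Calm2, 0.056 for Calm3 and 0.108 for Ppp3ca. The age difference under that score became -0.016 for Camk2g and -0.051 for Mef2d in layer 2, and -0.094 for Camkk2, -0.021 for Camta1 and -0.159 for Mef2d in layer 3. The difference of age changes of Camk2b became 0. As TPM keeps no depth, the read support of the lowest values is unknown.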
